A study of Rattus norvegicus with 6 samples.

Results

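The immediate early genes Fos, Jun, Junb, Egr1 and Nr4a1 and the growth regulator Myc were followed in BRIN-BD11 cells treated with MS-275. They are 6 of the 22250 genes counted in each library and were taken by their Ensembl identifiers, namely ENSRNOG00000008015 (Fos), ENSRNOG00000026293 (Jun), ENSRNOG00000042838 (Junb), ENSRNOG00000019422 (Egr1), ENSRNOG00000007607 (Nr4a1) and ENSRNOG00000004500 (Myc). BRIN-BD11 is an insulin-secreting line made by fusing RINm5F rat insulinoma cells with islet cells of the NEDH rat, whereas MS-275, also named entinostat, blocks the class I histone deacetylases. The labels describe 3 WT libraries, from cells that received no histone deacetylase inhibitor, and 3 libraries from cells kept for 16 h with 5 µM MS-275 in complete medium, all from passage 25. The study describes the control libraries as treated with the DMSO vehicle, at a concentration that differs from the one the labels give for dissolving MS-275. Both groups are of 1 cell line at 1 passage, and no earlier or later time was analysed here. Since nothing states that the 3 libraries of a group came from independent experiments, the p-values measure the spread between these libraries, which may be technical.

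Immediate early genes are switched on within minutes of a signal without new protein synthesis, and their messages are short-lived, so that a steady level reflects continuing transcription and decay. In beta cells, glucose, membrane depolarisation and cAMP are known to induce them through calcium, protein kinase A and MAP kinase signalling. Fos pairs with a Jun family protein to form the AP-1 transcription factor, whereas Jun and Junb can also pair with themselves. Egr1 and Nr4a1 encode a zinc finger factor and an orphan nuclear receptor, and Myc encodes a transcription factor that drives cell growth and ribosome production.

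The libraries held between 5230555 and 9172422 reads counted on genes, or 29.2% to 31.4% of all alignments listed. Levels are given as CPM, counts divided by the TMM-scaled library size, and 12596 genes had enough reads for a test, the 6 among them. In a principal component analysis of log2 CPM, the first component separated the groups and held 88.0% of the variance. WT replicate 1 and MS-275 replicate 3 lay nearest to the other group on it, at -44.2 and 44.7, against values down to -58.2 in the other WT libraries and up to 59.8 in the other MS-275 libraries. Values or ranges with libraries left out are given with each gene below. The labelled cell type was not checked against its markers, as the tables list identifiers without gene names.

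Of the 6 genes, 5 were higher and 1 was lower with MS-275 at an adjusted p-value under 0.05 (edgeR's quasi-likelihood test, Benjamini-Hochberg over all genes tested). At this threshold 63.6% of all genes tested were called, 32.1% higher and 31.5% lower, so a call alone did not set these genes apart. Junb and Fos rose by 1.67 and 1.55 on the log2 scale, and Nr4a1 and Egr1 rose by 1.03 and 0.91. Jun and Myc passed the same threshold with changes of 0.36 and -0.48, and in both the groups overlapped. The median log2 fold change of the 6 genes was 0.97, and that of all genes tested was -0.01. In 4 of the 6 genes, Junb, Fos, Nr4a1 and Egr1, every MS-275 library lay above every WT library, as was the case for 34.1% of all genes tested. An exact permutation test of the library values gave a two-sided p of 0.1 for each of these, the smallest that 3 libraries against 3 allow, and of 0.2 for Jun and for Myc. In these bulk cultures, a change in the number of cells that express a gene and a change in RNA per cell cannot be told apart.

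**Figure D1:**
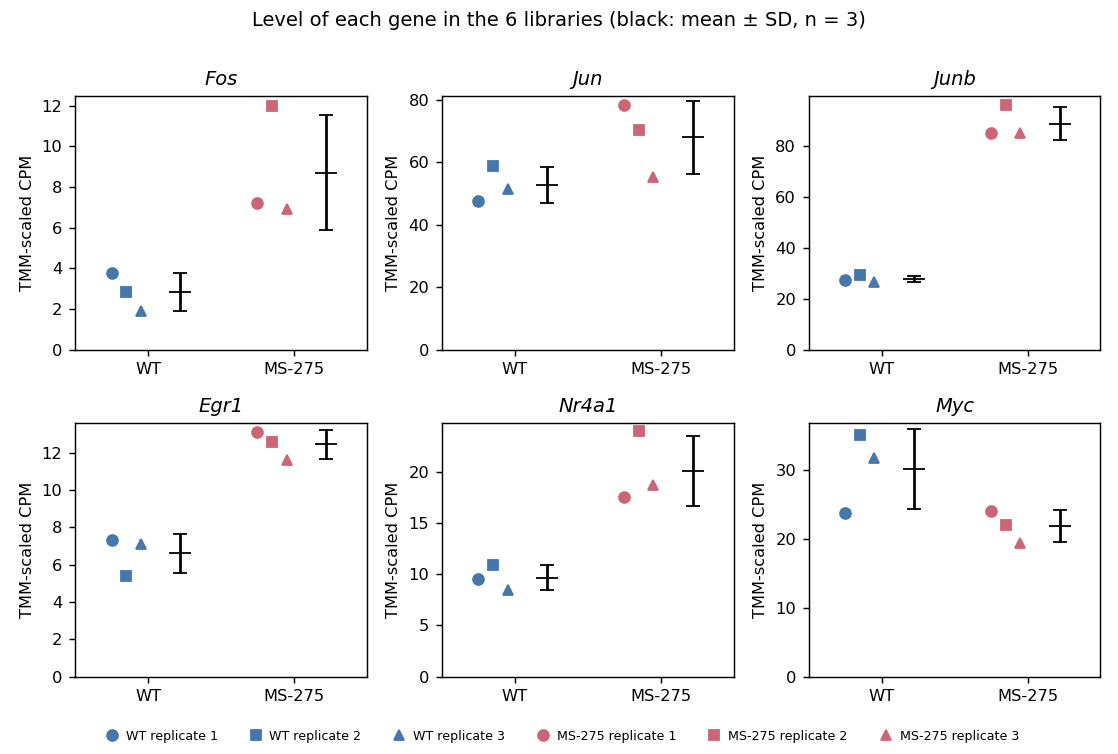
Level of each of the 6 genes in TMM-scaled CPM (vertical axes, each starting at 0) in the 3 WT and the 3 MS-275 libraries, with 1 point per library and the mean ± SD (n = 3) in black. The groups are apart for Fos, Junb, Egr1 and Nr4a1 and overlap for Jun and Myc.

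Junb, the AP-1 subunit that often restrains the activity of Jun, had the largest change of the 6 genes. Its counts, in the order of the replicate numbers 1 to 3 as for all genes here, were 219, 238 and 154 in the WT and 461, 490 and 762 in the MS-275 libraries. Scaled for library size these were 27.6, 29.2 and 26.6 CPM in the WT and 85.2, 96.1 and 85.2 CPM in the MS-275 libraries. The values within a group lay close together and the groups were far apart. The level was 27.8 ± 1.32 CPM (SD, n = 3) in the WT and 88.8 ± 6.33 (SD, n = 3) with MS-275, a 3.18-fold increase (log2 fold change 1.67, SE 0.10, adjusted p = 3.25e-09, edgeR). Its change was larger than that of 92.8% of the genes tested. The SD was 4.74% of the mean in the WT libraries, below the 7.13% that counting error alone gives at these counts. With each library left out in turn, the log2 fold change stayed between 1.62 and 1.71, the narrowest range of the 6 genes.

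Fos, the subunit that must pair with a Jun protein to bind DNA, was the gene with the fewest reads. It had 30, 23 and 11 counts in the WT libraries and 39, 61 and 62 counts in the MS-275 libraries. These correspond to 3.77, 2.83 and 1.90 CPM without the inhibitor and to 7.20, 12.0 and 6.93 CPM with it. The lowest MS-275 library, replicate 3, was above the highest WT library, replicate 1, while MS-275 replicate 2 was the highest of its group. The mean rose from 2.83 ± 0.936 to 8.70 ± 2.83 CPM (SD, n = 3 each), which is a 2.93-fold increase (log2 fold change 1.55, SE 0.29, adjusted p = 0.000272, edgeR). The exact 95% Poisson interval of the level in WT replicate 3 ran from 0.95 to 3.41 CPM. That of WT replicate 1, the highest WT library, ran from 2.55 to 5.39 CPM. It overlapped the intervals of MS-275 replicate 1 (5.12 to 9.85 CPM) and MS-275 replicate 3 (5.31 to 8.89 CPM). These intervals cover counting error only. The SD among WT libraries was 33.0% of the mean, against 23.6% from counting error, and among MS-275 libraries 32.5% against 13.9%. The log2 fold change was 1.81 without WT replicate 1, 1.71 without MS-275 replicate 3 and 1.29 without MS-275 replicate 2, and the adjusted p was at most 0.00318 when any 1 library was left out (edgeR).

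Jun, which encodes c-Jun, the founding member of its family, had the smallest change of the 6 genes. The counts were 379, 479 and 298 in the WT and 424, 358 and 496 in the MS-275 libraries, or 47.7, 58.9 and 51.6 CPM against 78.3, 70.2 and 55.5 CPM. MS-275 replicate 3 lay below WT replicate 2, so the groups overlapped. Mean levels were 52.7 ± 5.68 CPM in the WT and 68.0 ± 11.6 CPM with MS-275 (SD, n = 3 each), a 1.28-fold difference (log2 fold change 0.36, SE 0.13, adjusted p = 0.0224, edgeR). Within the MS-275 group the SD was 17.1% of the mean, against 4.89% from counting error, so the libraries differed by more than their read numbers alone would give. The call did not hold without WT replicate 1 (log2 fold change 0.29, adjusted p = 0.0814), WT replicate 3 (0.34, 0.0632), MS-275 replicate 1 (0.24, 0.0871) or MS-275 replicate 2 (0.34, 0.0752), nor with library sizes in place of TMM (0.29, 0.0558), all by edgeR. It held without WT replicate 2 (0.45, 0.0164), and without MS-275 replicate 3, the library that overlapped, the log2 fold change was 0.49 (adjusted p = 0.000491, edgeR).

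The balance of the AP-1 genes was then compared within each library, since a ratio of 2 genes in the same library does not depend on how libraries are scaled. Such a ratio combines the changes of its 2 genes given above and is not an independent result. The share of other gene pairs whose ratios do not overlap was not computed. The counts are not per gene length, so that a ratio can be compared between libraries but does not say which message was the more abundant. The Junb to Jun count ratio was 0.578, 0.497 and 0.518 in the WT libraries and 1.09, 1.37 and 1.54 in the MS-275 libraries. The ratio was 2.48-fold higher with MS-275 on average, and the groups did not overlap (difference 1.31 on the log2 scale; SD of the log2 ratio 0.113 in WT and 0.254 in MS-275, n = 3 each). The exact permutation test gave p = 0.1 (two-sided, 0.15 adjusted over the 3 ratios tested), and 0.1 is the smallest p that 3 libraries against 3 allow.

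The Jun to Fos count ratio was lower with MS-275. It was 12.4, 20.4 and 26 in the WT libraries and 10.7, 5.83 and 7.94 in the MS-275 libraries. The WT libraries were all higher, although WT replicate 1 and MS-275 replicate 1 were close. On the log2 scale the mean was 4.23 ± 0.541 in the WT and 2.99 ± 0.441 with MS-275 (SD, n = 3 each), a difference of -1.24 (exact permutation test, two-sided p = 0.1, adjusted 0.15). The difference was -1.54 without WT replicate 1 and -1.24 without MS-275 replicate 3. It was smaller without WT replicate 3 (-1.01) or MS-275 replicate 2 (-1.02). The Junb to Fos ratio was 7.20, 10.1 and 13.4 in the WT libraries and 11.7, 7.98 and 12.2 in the MS-275 libraries, so the groups overlapped throughout. Its mean difference was 0.07 on the log2 scale, with SDs of 0.451 and 0.337 (n = 3 each; exact permutation test, two-sided p = 0.8), and its sign turned without WT replicate 1 (-0.16), MS-275 replicate 1 (-0.01) or MS-275 replicate 3 (-0.04).

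As a share of the summed counts of Fos, Jun and Junb, Jun made up 63.1% ± 2.43 in the WT and 40.9% ± 4.37 in the MS-275 libraries, and Junb 33.4% ± 1.36 and 53.8% ± 3.92 (SD, n = 3 each). Fos made up 3.42% ± 1.23 and 5.21% ± 1.32 of these counts. Its shares overlapped, with 4.78% in WT replicate 1 above 4.22% in MS-275 replicate 1 and 4.70% in MS-275 replicate 3. The sum of Fos, Jun and Junb, without other AP-1 genes, was between 79.0 and 90.9 CPM in the WT and between 148 and 178 CPM in the MS-275 libraries.

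**Figure D2:**
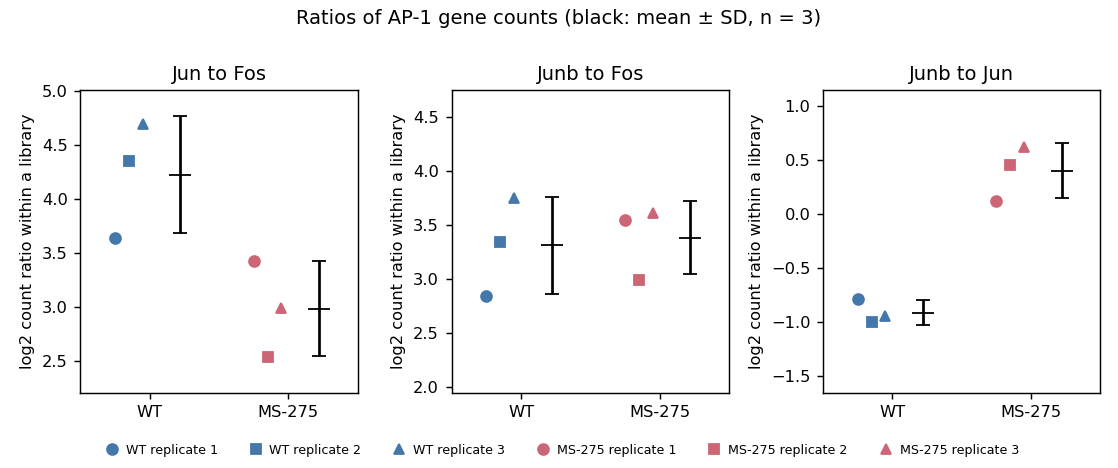
Ratio of the counts of Jun to Fos, Junb to Fos and Junb to Jun within each library on a log2 scale, each vertical axis spanning the same range, with 1 point per library and the mean ± SD (n = 3) in black. Jun to Fos is lower and Junb to Jun is higher in all MS-275 libraries than in all WT libraries, whereas Junb to Fos overlaps.

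Nr4a1, the receptor also called Nur77, was 2.05-fold higher with MS-275. Its counts were 76, 89 and 49 in the WT and 95, 122 and 167 in the MS-275 libraries. These gave 9.56, 10.9 and 8.48 CPM in the WT libraries and 17.5, 23.9 and 18.7 CPM in the MS-275 libraries. The lowest MS-275 library was well above the highest WT library, and MS-275 replicate 2 was the highest, as it was for Fos and Junb. The means were 9.66 ± 1.23 and 20.1 ± 3.41 CPM (SD, n = 3 each), with a log2 fold change of 1.03 (SE 0.17, adjusted p = 7.35e-05, edgeR). The change exceeded that of 86.5% of the genes tested. In the fits with 1 library left out it was between 0.91 and 1.13, with an adjusted p of at most 0.00106 (edgeR), so that it lay on either side of a log2 fold change of 1.

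Egr1, a zinc finger factor that binds GC-rich promoter sites, was measured at a low depth of 58, 44 and 41 counts in the WT and 71, 64 and 104 counts in the MS-275 libraries. Its level was 7.30, 5.41 and 7.09 CPM in the WT libraries. In the MS-275 libraries it was 13.1, 12.6 and 11.6 CPM. The groups did not overlap, and the MS-275 libraries lay closer together than the WT libraries. The mean went from 6.60 ± 1.04 to 12.4 ± 0.752 CPM (SD, n = 3 each), a 1.88-fold increase (log2 fold change 0.91, SE 0.19, adjusted p = 0.000543, edgeR). The spread among the MS-275 libraries was 6.04% of the mean, below the 11.4% of counting error, and that among the WT libraries was 15.7% against 14.6%. With any 1 library left out, the log2 fold change was between 0.78 and 1.01 and the adjusted p at most 0.00560 (edgeR).

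With a threshold of 1 on the log2 fold change as well, Junb, Fos and Nr4a1 were called, and 13.9% of all genes tested were called higher by this rule. Egr1 fell short of it at 0.91, but reached 1.01 without WT replicate 1 (adjusted p = 0.000804, edgeR) and 1.00 with upper-quartile scaling.

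Promoter sequence was matched for 3 of the 6 genes, Junb, Nr4a1 and Egr1, the only ones with a promoter in the sequences used. All 3 were higher with MS-275. The 250 bases before the RefSeq start were searched on both strands for TGACG, a core sequence bound by CREB and its relatives, and for the CArG box, the site bound by serum response factor, both known elements of immediate early promoters. The windows of Junb and Nr4a1 are printed 5′ to 3′ to show these matches, with the build GRCr8, which is not the build the reads were counted on. They lie at chr19:40080876-40081125 (Junb) and chr7:134259888-134260137 (Nr4a1), both on the plus strand, and capitals mark TGACG or its reverse complement CGTCA.
Junb: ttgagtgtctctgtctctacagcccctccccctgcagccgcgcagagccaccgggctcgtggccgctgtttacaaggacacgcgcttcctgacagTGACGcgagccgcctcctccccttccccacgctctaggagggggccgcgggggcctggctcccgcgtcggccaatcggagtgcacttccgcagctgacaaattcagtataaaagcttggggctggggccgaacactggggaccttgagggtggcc
Nr4a1: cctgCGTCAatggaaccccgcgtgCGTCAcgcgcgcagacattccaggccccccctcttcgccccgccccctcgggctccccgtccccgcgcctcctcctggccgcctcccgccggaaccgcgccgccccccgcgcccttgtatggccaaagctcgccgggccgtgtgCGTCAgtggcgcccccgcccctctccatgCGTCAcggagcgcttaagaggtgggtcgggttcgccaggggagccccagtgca
The window of Nr4a1 held 4 matches to TGACG, which began 246, 226, 82 and 53 bases before the start, and that of Junb held 1, at 155 bases. The Egr1 window, which is not printed, held 2, at 135 and 66 bases. Of all 33469 windows of this length in the table, 18.2% held TGACG at least once. The share with as many as 4 matches was not computed. The CArG box was found in 1.5% of all windows and had 2 matches before Egr1, at 105 and 83 bases, and 0 before Junb or Nr4a1. The full palindrome TGACGTCA, present in 1.59% of all windows and overlapping TGACG by its letters, had 0 matches in the windows of the 3 genes, as did the AP-1 site TGACTCA (4.05% of all windows). TATAAA was found before Junb, at 49 bases, and in 12.9% of all windows. GGGCGG, also searched, was in 30.5% of all windows and had 3 matches before Nr4a1 and 0 before Junb or Egr1. CACGTG was in 5.59% of all windows and had 0 matches before the 3 genes. These are matches of letters and not measured sites, and RefSeq lists several transcripts for Nr4a1, of which the window covers the start of 1.

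Myc was the only one of the 6 genes that was lower with MS-275. Its counts were 189, 285 and 183 in the WT and 130, 112 and 174 in the MS-275 libraries. The WT libraries had 23.8, 35.0 and 31.7 CPM and the MS-275 libraries 24.0, 22 and 19.5 CPM. WT replicate 1 lay just below MS-275 replicate 1, so the groups overlapped, whereas the other WT libraries were above all MS-275 libraries. The mean was 30.2 ± 5.77 CPM in the WT and 21.8 ± 2.28 CPM with MS-275 (SD, n = 3 each), 28.1% lower by the fitted log2 fold change of -0.48 (SE 0.15, adjusted p = 0.0120, edgeR). The change was below that of most genes, with 21.9% of the genes tested having a lower one. The SD of the WT libraries was 19.1% of the mean, against 6.90% from counting error. Without WT replicate 2, the library with the highest level, the log2 fold change was -0.35 and the call was lost (adjusted p = 0.0923, edgeR). Without WT replicate 1 it was -0.62 (adjusted p = 0.00119, edgeR), and without MS-275 replicate 3 it was -0.39 (adjusted p = 0.0397, edgeR).

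**Figure D3:**
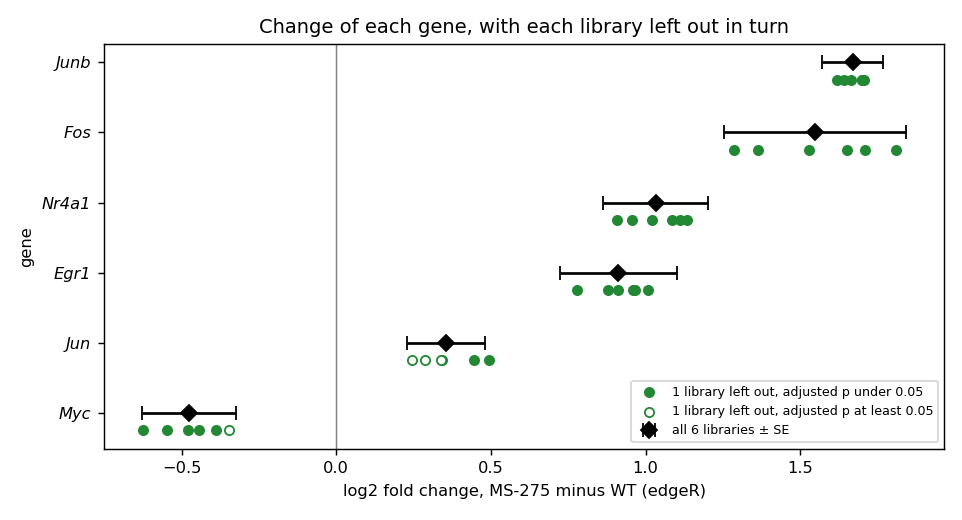
Log2 fold change of each gene between MS-275 and WT (horizontal axis) with its SE from all 6 libraries (black) and with each library left out in turn (green, open where the adjusted p was at least 0.05). Junb, Fos, Nr4a1 and Egr1 stay called in each fit, while Jun lost the call in 4 fits and Myc in 1.

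Among all genes tested, Junb and Fos lay in the upper tail of the changes, with 92.8% and 91.9% of the genes having a lower log2 fold change. Egr1 was at 84.6% and Jun at 68.9%. Larger increases than that of Junb were thus found in many other genes.

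**Figure D4:**
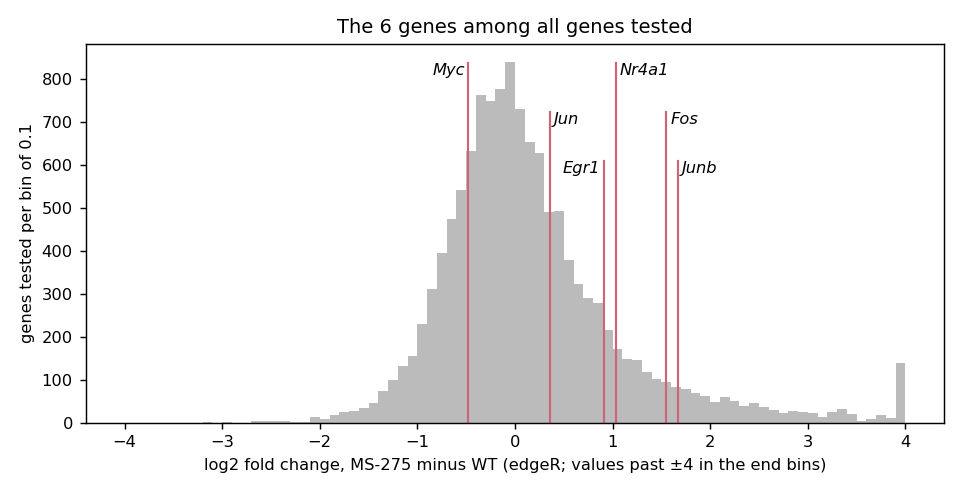
Distribution of the log2 fold change between MS-275 and WT over the 12596 genes tested (grey, bins of 0.1, values past the ends of the axis collected in the end bins), with the 6 genes marked in red. Junb, Fos, Nr4a1 and Egr1 lie in the upper part of the distribution, with 92.8%, 91.9%, 86.5% and 84.6% of genes having a lower change. Jun and Myc lie nearer its middle.

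The gene whose pattern over the 6 libraries was most like that of Junb was ENSRNOG00000010514 (Pearson r = 0.9997 of log2 CPM), which is not paired with a name here. It was at 22.6 ± 1.90 CPM in the WT and 113 ± 10.8 CPM in the MS-275 libraries (SD, n = 3 each). A total of 1965 tested genes had r above 0.95 with Junb, and the 6 points share the contrast of the 2 groups, in which most genes tested differed. For Myc only 38 genes passed that value, and the nearest, ENSRNOG00000026944 (r = 0.989), had a log2 fold change of -0.36 (SE 0.24, adjusted p = 0.193, edgeR).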

How the data were processed

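RNA-seq libraries from 3 WT and 3 MS-275-treated cultures of BRIN-BD11 cells were analysed. Contaminating reads were filtered out by the authors (bowtie2), who aligned to Rnor_6.0 with STAR and deposited raw counts per Ensembl gene for each library. FeatureCounts is named as the counter, although each table closes with 5 summary lines in htseq-count's format. These held between 68.6% and 70.8% of the alignments and were left out. Most of them were alignments assigned to no gene, which made up from 60.2% (WT replicate 1) to 61.9% (MS-275 replicate 3) of all alignments. The strand setting of the counting is not given in the sources used here, so reads from an overlapping antisense gene cannot be told apart. A deposited table of the authors' own comparison (group means, fold changes, p-values) was not used.

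Genes were kept with filterByExpr of edgeR 4.0.16 (R 4.3.3), scaled by TMM and tested by the quasi-likelihood test with robust dispersions and no block over all 12596 genes. A call is a Benjamini-Hochberg adjusted p under 0.05. The SE is the log2 fold change divided by the square root of F. Ratios had 0.5 added to each count. Scripts were tested on simulated data. Alternatives were library sizes, upper-quartile scaling, DESeq2 1.42.0, other filters and thresholds, a replicate block and leaving out each library. No pair of replicates was a copy, with a chi-square per degree of freedom of at least 1.76.

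The genes named were the 6 genes, and the 1 gene most like the highest and the lowest of them by Pearson r of log2 CPM with a prior count of 2. The members and lists were chosen with earlier results of these data known. The names of the 6 identifiers were supplied with the gene selection, and the RefSeq tables used here pair none of the identifiers with a name. The lists of other immediate early, AP-1 and Myc network genes and of cell type markers were therefore not analysed. Promoter sequences are from RefSeq (GRCr8), matched by symbol for 3 of the 6 genes.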

Additional observations from a re-analysis of the deposited data

How the results depend on the processing

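Of the 141 values recomputed under an alternative, 129 did not change in direction or call or, for counts, by more than 1.5 times. Junb, Fos, Nr4a1 and Egr1 kept their call under each of the 12 other fits (adjusted p of at most 0.00560, edgeR or DESeq2). Jun had a log2 fold change of 0.29 with library sizes alone, where its call was lost, and between 0.24 and 0.49 with each library left out, where it was lost in 4 of 6 fits. Myc was between -0.62 and -0.35 in these fits and lost its call in 1. The cause was not tested. The Junb to Fos ratio differed by between -0.16 and 0.29 on the log2 scale with each library left out and reversed in 3 of them (-0.16, -0.01 and -0.04). With a log2 fold change of at least 1 also required, 1754 genes were higher and 650 lower in place of 4039 and 3966, and 3 of the 6 genes were called in place of 6, which follows from the stricter rule.

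Whether a replicate number marks a shared batch was not settled. The deviations from the group means correlated at 0.16, -0.02 and 0.13 for the numbers 1, 2 and 3. Libraries of unlike number were not compared, so these values have no baseline. The fit with the replicate number as a block called 4142 genes higher and 4113 lower, against 4039 and 3966 without it. With the replicate number as a block, the 6 genes were all called (Fos 1.60, Jun 0.36, Junb 1.67, Myc -0.46 on the log2 scale), and the differences in the log2 ratios were the same with an exact p of 0.25 for Jun to Fos, the smallest that 3 pairs allow. Alternatives set for gene lists were not run, as no names were paired. Depth limits Fos most, with 11 to 30 counts in a WT library.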

Other observations

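The remaining ratios between the 6 genes were examined after their values had been seen and are given without a test. All ratios between the 6 genes except Junb to Fos, Fos to Nr4a1 and Nr4a1 to Egr1 were apart between the groups. The share among other pairs of genes was not computed. Jun and Myc each overlapped between the groups, but the Jun to Myc count ratio within a library, like most of these ratios, did not. In the order of the replicate numbers it was 2.0, 1.68 and 1.63 in the WT and 3.25, 3.19 and 2.85 in the MS-275 libraries, a difference of 0.81 on the log2 scale (SD 0.162 in WT and 0.104 in MS-275, n = 3 each). The Junb to Myc ratio went from between 0.835 and 1.16 in the WT to between 3.54 and 4.37 in the MS-275 libraries, 4.36-fold on average. Neighbours in the order of change could not all be separated. The Nr4a1 to Egr1 ratio was 1.31, 2.01 and 1.19 in the WT and 1.34, 1.90 and 1.60 in the MS-275 libraries, and the Fos to Nr4a1 ratio overlapped as well, with values up to 0.399 in the WT and from 0.373 in the MS-275 libraries.

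MS-275 replicate 2 was the highest of its group for Fos, Junb and Nr4a1, but replicate 1 was the highest for Jun, Egr1 and Myc.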
